A study of Cavia porcellus with 10 samples.

Results

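The genes described here are 37 genes of photoreceptors, the light-sensing rod and cone cells of the retina, measured in RNA-seq of guinea pig sclera. They were chosen by symbol: each row of the count table whose symbol equals a member, ignoring case, was taken, and where a symbol stands on several rows the row with the highest mean count was used. Of the 37 symbols 36 were found among the 17642 rows that carry a symbol, and ARR3, cone arrestin, matched no row. Of these 36 genes 30 had enough reads to be tested and 6 fell below the read filter, which is called too low to measure here. Of those 6, RP1 gave a difference when no filter was used, as described below. The samples were sclera, the collagen wall of the eyeball, taken from guinea pigs (Cavia porcellus) that were male and 2 to 3 weeks old. In the myopia group both eyes underwent lens-induced myopization, in which lenses drive the eye to become nearsighted, and the control animals were left untreated. Each group had 5 libraries from 5 eyes, numbered 1 to 5. Whether any 2 eyes came from 1 animal is not in the labels. The p-values therefore describe only the spread among these libraries, part of which may be technical.

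Photoreceptors catch light with an opsin, which activates a G protein, transducin. Transducin releases the inhibitory subunit of a phosphodiesterase, cyclic GMP falls, and cyclic-GMP-gated channels in the outer segment close. The signal is shut off by a receptor kinase and by arrestin, and cyclic GMP is made again by guanylate cyclases with their calcium-sensing activator proteins. Rods and cones use separate genes for many of these steps. The cells belong to the retina, which is separated from the sclera by the pigment epithelium and the choroid, so their transcripts are not a defining product of scleral tissue.

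The labelled tissue was checked with 8 scleral fibroblast genes (COL1A1, COL1A2, COL3A1, DCN, LUM, FMOD, PRRX1, PDGFRA), which were present in every library and summed to 124025 to 155765 CPM in control and 70416 to 97025 CPM in myopia. CPM is the read count scaled to the size of the library with TMM factors, which set the libraries to a common level under the assumption that most genes do not differ. The 37 genes summed to 274, 297, 244, 227 and 344 CPM in control libraries 1 to 5 and 87.0, 100, 193, 87.4 and 233 CPM in myopia libraries 1 to 5. Total counts were 32309258 to 35430797 reads per library, so that 1 read was worth 0.0245 to 0.0394 CPM, and a count of 0 allows a level of up to 0.0735 to 0.118 CPM (3 reads, counting error only). On the first principal component of all genes tested, which held 77.1% of the variance, control libraries 4 and 5 lay nearest to the myopia libraries. For the photoreceptor genes other libraries stood apart: myopia libraries 3 and 5 were high and myopia libraries 1, 2 and 4 low.

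That split of the myopia libraries was the main feature of the data on these genes. In 27 of the 30 genes tested, myopia libraries 3 and 5 both lay above myopia libraries 1, 2 and 4, a pattern found in 10.3% of all 14683 genes tested. Only CNGB1, GNB3 and GNGT2 among the 30 did not show it. Control library 5 was the highest of the control libraries in 20 of the 30 (33.5% of all genes tested). The coefficient of variation (SD over mean) of the 30 genes had a median of 28.4% in control and 73.3% in myopia, against 18% and 12.6% over all genes tested. Myopia libraries 1, 2 and 4 lay below the whole control range for 23, 23 and 25 of the 30 genes, and myopia libraries 3 and 5 for 11 and 9. Over all genes tested, every myopia library lay below every control library for 28%, so each single library did so for at least that share. The share for each library was not counted.

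**Figure D1:**
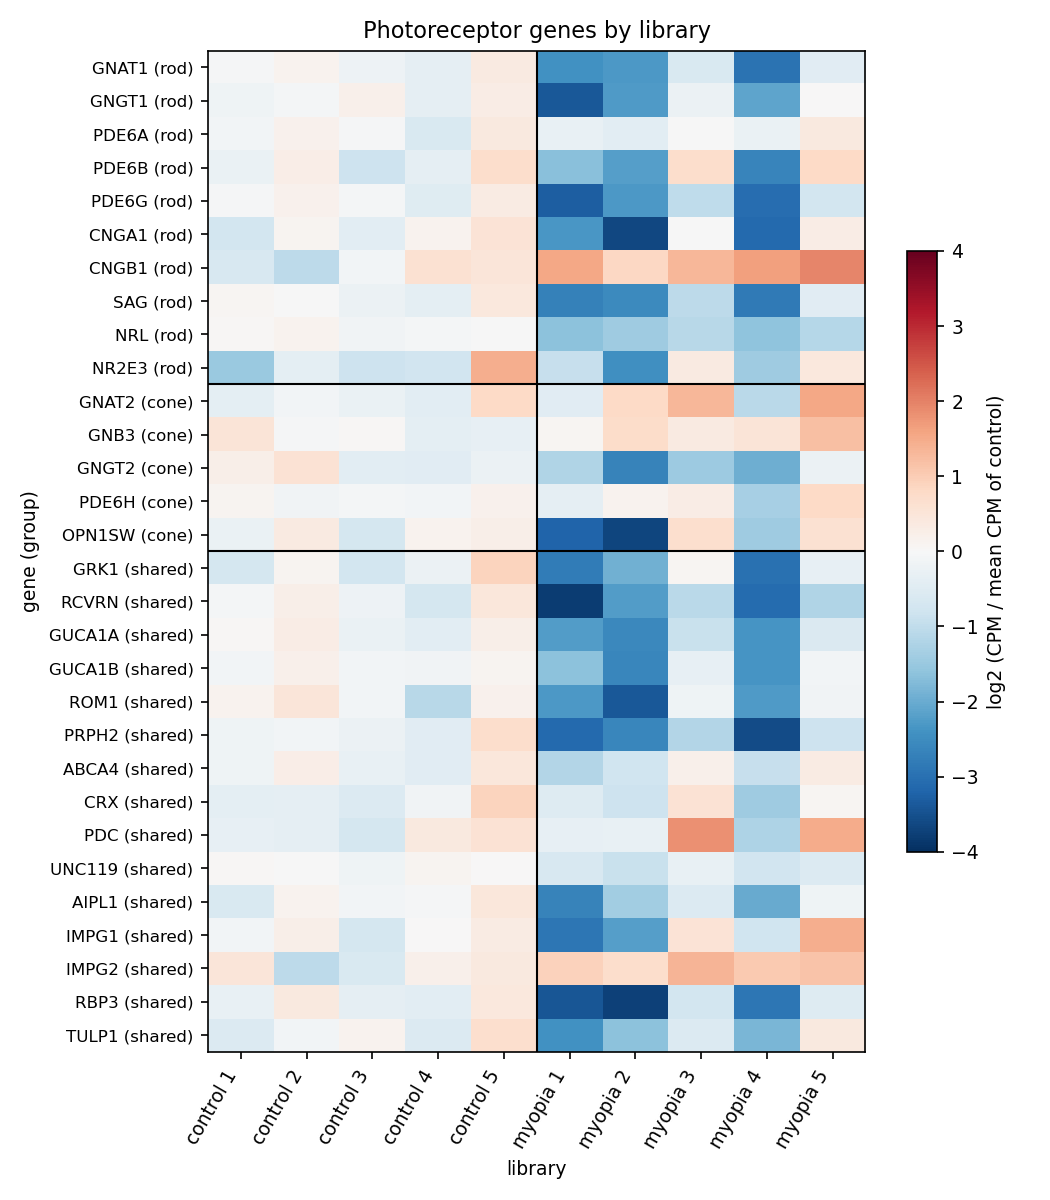
Heat map of the 30 photoreceptor genes tested (rows, ordered as rod, cone and shared genes) in the 10 libraries (columns); colour gives log2 of CPM over the gene's control mean. Most rows are dark blue in myopia libraries 1, 2 and 4 and paler in myopia libraries 3 and 5, while CNGB1 and IMPG2 are red in all 5 myopia libraries.

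Between the groups, 12 of the 30 genes tested were lower in myopia, 3 were higher and 15 did not pass, with an adjusted p under 0.05 in edgeR's quasi-likelihood test with Benjamini-Hochberg adjustment over all genes. The background was high: 71.9% of all genes tested passed, 35.1% as lower and 36.9% as higher, so 15 calls among 30 genes (50%) was not above the share of the genes at large. The median log2 fold change of the 30 was -0.89, and that of all genes tested 0.03. The groups did not overlap for 11 of the 30 genes, against 57.8% of all genes tested. In 9 of them myopia was lower (28% of all genes tested) and in 2 higher (29.8%). Overlap was judged on TMM-scaled CPM only. In raw reads, at similar library totals, the groups overlapped for SAG, GNAT1, PDE6G, GUCA1A, UNC119 and RBP3. For RCVRN and PRPH2 the gap was small (219 against 221 and 180 against 187 reads). NRL, CNGB1 and IMPG2 stayed apart in raw reads. With scaling by total count alone, which moved the median of all genes from 0.03 to 0.47, 6 of the 30 were lower and 3 higher. The share of all genes tested that was lower also dropped, to 18.7% from the 35.1% found with TMM. Of all calls, 73.5% were higher instead of the 51.2% found with TMM. Lower and higher are therefore relative to the TMM scale. In bulk tissue, fewer photoreceptor cells in a sample and less RNA per photoreceptor cannot be told apart. The amount of retina present in each scleral sample is not given, so its part cannot be told apart either.

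These counts depended on the libraries that stood apart. Without myopia libraries 3 and 5, 21 of 30 genes were lower and 1 higher, and the median log2 fold change was -1.93. Over all genes tested in that setting, 32% were lower (4750 genes) and 4957 genes were higher. Without myopia libraries 1, 2 and 4, 8 of 34 genes tested were lower and 6 higher, and the median of the same 30 genes was -0.06. There, 29.3% of all genes tested were lower (4403 genes) and 4578 genes were higher. Both of these choices were made after the data were seen and follow the values of these genes, so neither is a test of the lenses. Without control libraries 4 and 5 together, 7 of 31 genes tested were lower and 3 higher. Of all genes tested in that setting, 34.7% were lower (5185 genes) and 5734 genes were higher.

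**Figure D2:**
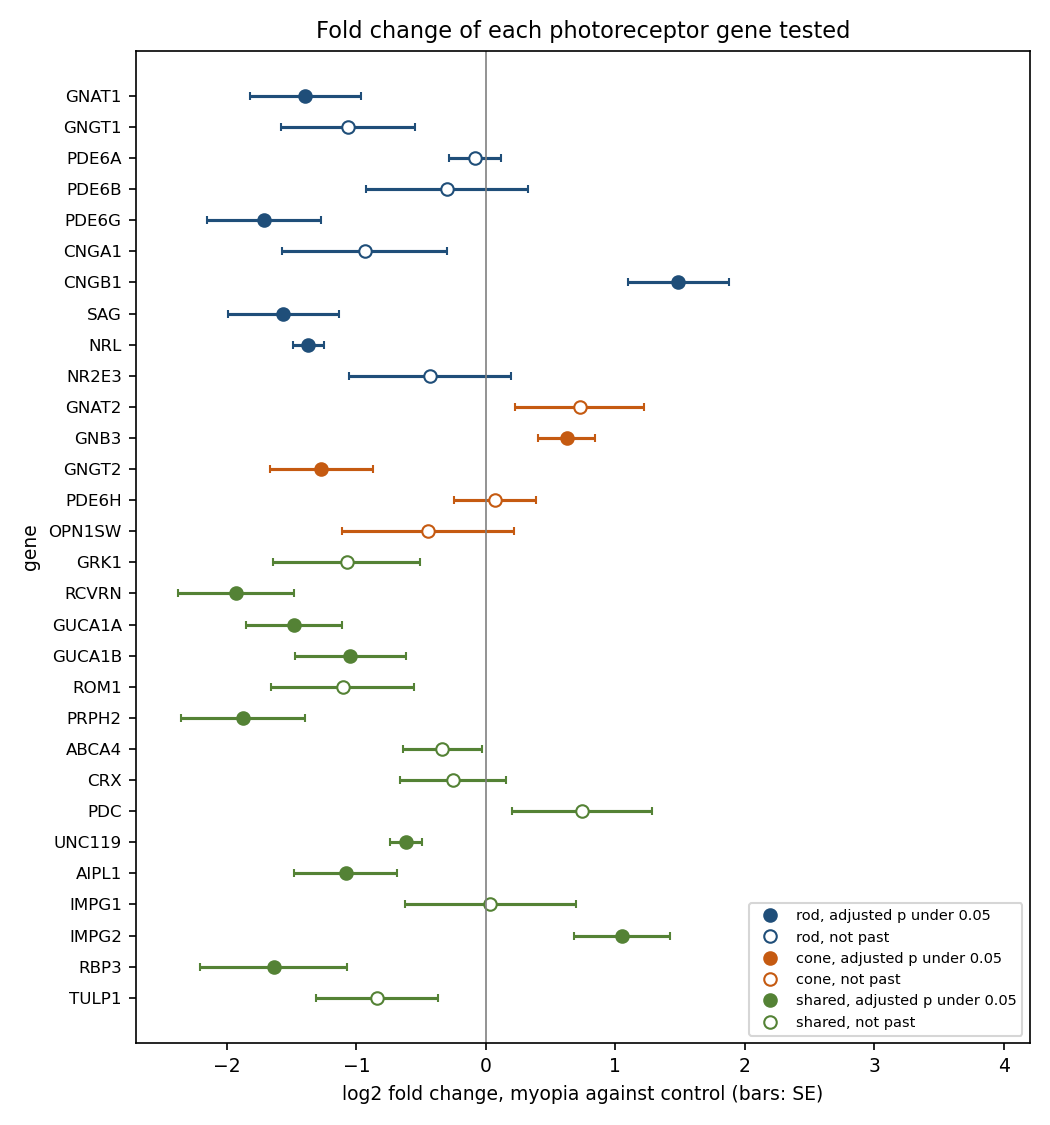
Log2 fold change of myopia against control (horizontal axis, points; bars are the standard error) for each of the 30 genes tested, coloured by rod, cone and shared genes; filled points have an adjusted p under 0.05. The filled points lie left of 0 except for CNGB1, GNB3 and IMPG2.

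Of the 10 rod genes, all of them tested, 4 were lower, 1 was higher and 5 did not pass. SAG, rod arrestin, which binds the activated light receptor and ends its signal, stood at 60.8, 57.4, 49.7, 44.7 and 78.0 CPM in control libraries 1 to 5 and 8.94, 10, 28.4, 8.25 and 42.6 CPM in myopia libraries 1 to 5. On the TMM scale every myopia library lay below every control library, though myopia library 5 came close to control library 4. In raw reads myopia library 5 (1617) exceeded control library 4 (1363). The log2 fold change was -1.57 ± 0.43 (SE, adjusted p = 0.0056). GNAT1, the alpha subunit of rod transducin, stood at 35.7, 40.3, 32.4, 28.5 and 47.7 CPM in control libraries 1 to 5 and 6.86, 7.52, 24.4, 4.78 and 26.7 CPM in myopia libraries 1 to 5. The groups did not overlap, with myopia libraries 3 and 5 between the other myopia libraries and control, and the log2 fold change was -1.39 ± 0.43 (adjusted p = 0.0112). The call of GNAT1 ended without control library 5 (-1.28, adjusted p = 0.0547) and when scaled by total count (-0.96, adjusted p = 0.0637), and both calls ended without control libraries 4 and 5 (adjusted p = 0.0605 for SAG and 0.0836 for GNAT1).

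GNGT1, the gamma subunit that partners GNAT1, stood at 2.88, 3.10, 3.79, 2.56 and 3.98 CPM in control libraries 1 to 5 and 0.312, 0.676, 2.75, 0.759 and 3.29 CPM in myopia libraries 1 to 5. Myopia libraries 3 and 5 were within the control range and the others under it. Its log2 fold change was -1.07 ± 0.51 (adjusted p = 0.0785, not past the test), but it passed without myopia library 3 (-1.37, adjusted p = 0.0395) or myopia library 5 (-1.53, adjusted p = 0.0156).

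Of the subunits of the rod phosphodiesterase, which breaks down cyclic GMP, 1 of 3 passed. PDE6G, the inhibitory gamma subunit, stood at 15.8, 18.3, 15.4, 11.5 and 20.4 CPM in control libraries 1 to 5 and 1.66, 3.30, 8.01, 1.98 and 9.90 CPM in myopia libraries 1 to 5, without overlap, and fell by 1.71 ± 0.44 on the log2 scale (adjusted p = 0.00378). PDE6B, the catalytic beta subunit, stood at 3.39, 4.97, 2.32, 3.18 and 6.74 CPM in control libraries 1 to 5 and 1.30, 0.902, 6.67, 0.661 and 7.22 CPM in myopia libraries 1 to 5. Its myopia libraries 1, 2 and 4 lay below all controls, library 3 was near the top of the control range and library 5 above it, and the log2 fold change was -0.30 ± 0.62 (adjusted p = 0.68). PDE6A, the catalytic alpha subunit, stood at 9.07, 11.1, 9.42, 6.43 and 12.9 CPM in control libraries 1 to 5 and 7.95, 7.38, 9.73, 8.16 and 12.9 CPM in myopia libraries 1 to 5. Myopia libraries 3 and 5 were again the highest of the myopia libraries, but all 5 lay within the control range, and its log2 fold change was -0.09 ± 0.20 (adjusted p = 0.712). The estimates for PDE6A and PDE6B turned positive with scaling by total count (0.35 and 0.12), neither past the test.

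CNGA1 and CNGB1 encode the alpha and beta subunits of the rod channel that closes when cyclic GMP falls. CNGA1 was near the lower limit, with 16, 32, 23, 35 and 48 reads in control and 8, 3, 40, 5 and 49 in myopia, and its log2 fold change was -0.94 ± 0.64 (adjusted p = 0.2, not past the test). CNGB1 stands on 2 rows of the table, which does not say how they differ. The row with the higher mean had 6, 5, 10, 17 and 16 reads in control and 41, 23, 36, 46 and 54 in myopia, without overlap, and rose by 1.49 ± 0.39 on the log2 scale (adjusted p = 0.00363). The other row had 24, 21, 34, 15 and 13 reads in control and 7, 17, 60, 9 and 31 in myopia, with myopia libraries 3 and 5 highest, and did not pass (-0.21 ± 0.55, adjusted p = 0.746). With the rows summed, the call ended (0.61, adjusted p = 0.0879), so the direction of CNGB1 is uncertain.

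NRL and NR2E3 encode transcription factors that set rod fate and hold down cone genes. NRL stood at 43.5, 46.3, 38.2, 39.9 and 41.7 CPM in control libraries 1 to 5 and 13.4, 15.5, 19.6, 13.7 and 18.8 CPM in myopia libraries 1 to 5. The groups were far apart and the spread within each was small, and the log2 fold change was -1.37 ± 0.12 (adjusted p = 7.82e-07). NRL kept its call as lower in every alternative run. NR2E3 was sparse, with 7, 17, 13, 14 and 66 reads in control and 16, 5, 39, 12 and 40 in myopia, control library 5 standing above the rest, and did not pass (-0.43 ± 0.63, adjusted p = 0.55). Without control library 5 its estimate turned to 0.39, also not past the test.

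**Figure D3:**
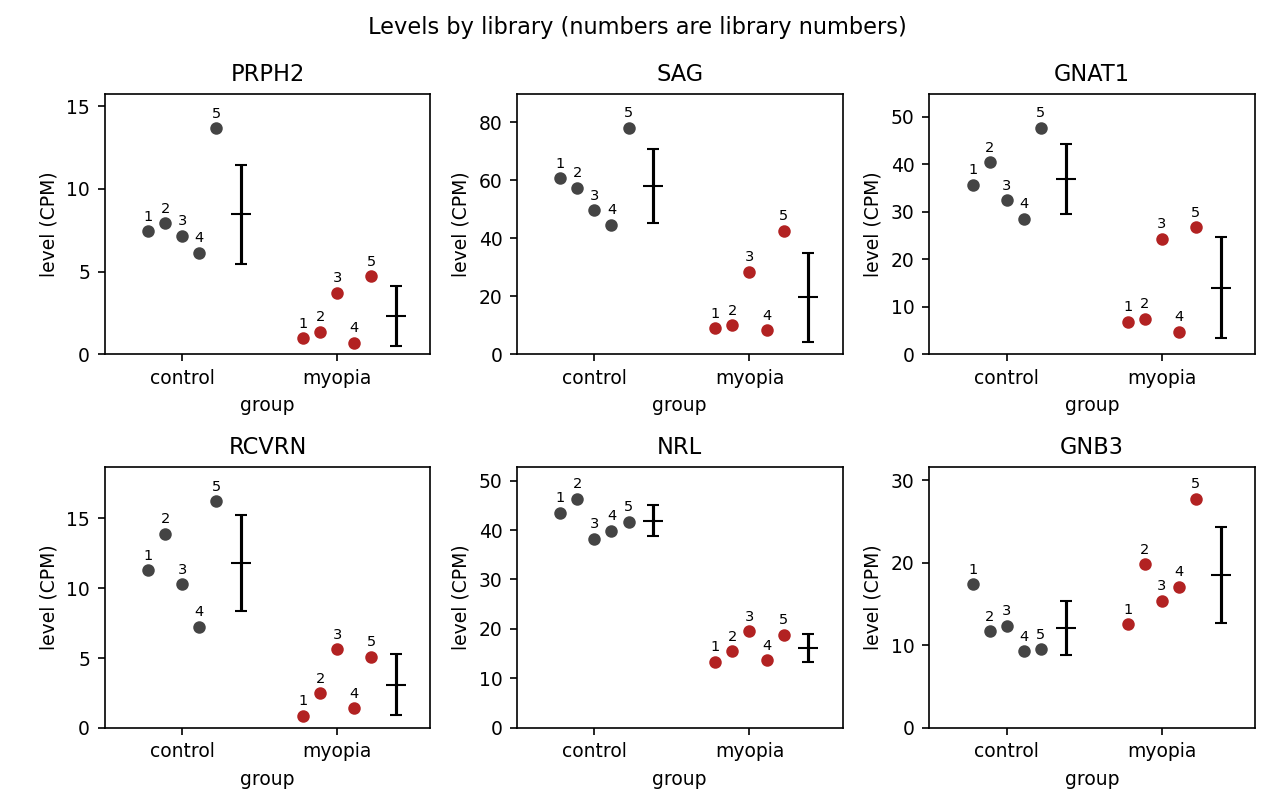
Level in CPM (vertical axis, starting at 0) of PRPH2, SAG, GNAT1, RCVRN, NRL and GNB3 in each library (points, with library numbers) of control and myopia; the bar beside each group is the mean ± SD (n = 5). PRPH2, SAG, GNAT1 and RCVRN split the myopia libraries, with 3 and 5 high, whereas the NRL points lie between 13.4 and 19.6 CPM in myopia, and the GNB3 points overlap between the groups.

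Of the 9 cone genes 8 were found, 5 were tested, 1 was lower, 1 higher and 3 did not pass. GNB3, the beta subunit of cone transducin, which is also found in other cells, stood at 17.4, 11.7, 12.4, 9.25 and 9.54 CPM in control libraries 1 to 5 and 12.6, 19.8, 15.4, 17.1 and 27.8 CPM in myopia libraries 1 to 5. The groups overlapped, and it rose by 0.62 ± 0.22 on the log2 scale (adjusted p = 0.0199), a call that ended without myopia library 5 (0.43, adjusted p = 0.0662) and without control libraries 4 and 5 (0.44, adjusted p = 0.129). GNGT2, the gamma subunit of cone transducin, stood at 3.35, 4.30, 2.12, 2.10 and 2.44 CPM in control libraries 1 to 5 and 1.25, 0.451, 1.05, 0.735 and 2.42 CPM in myopia libraries 1 to 5. Only myopia library 5 reached the control range, and the gene fell by 1.27 ± 0.40 on the log2 scale (adjusted p = 0.0111), but not past the test when scaled by total count (-0.80, adjusted p = 0.0899). It is also expressed in white blood cells: 8 leukocyte genes summed to 411 to 585 CPM in control and 178 to 239 CPM in myopia, and 6 of the 8 were lower and 1 higher. Their part in the fall of GNGT2 was not tested.

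GNAT2, the alpha subunit of cone transducin, had 11, 15, 14, 13 and 31 reads in control and 16, 35, 56, 11 and 63 in myopia. Myopia libraries 3 and 5 lay above all controls, and the log2 fold change was 0.72 ± 0.50 (adjusted p = 0.204). PDE6H, the inhibitory subunit of the cone phosphodiesterase, stood at 2.96, 2.50, 2.59, 2.56 and 3.08 CPM in control libraries 1 to 5 and 2.13, 3.04, 3.34, 1.1 and 4.79 CPM in myopia libraries 1 to 5. The control libraries were close together, the myopia libraries spread on both sides of them, and the log2 fold change was 0.07 ± 0.32 (adjusted p = 0.847). OPN1SW, the short-wavelength cone opsin, had 15, 26, 13, 24 and 26 reads in control and 3, 2, 44, 11 and 41 in myopia. Its myopia libraries fell on both sides of the control range, with 3 and 5 above it, and the log2 fold change was -0.45 ± 0.66 (adjusted p = 0.557), so that none of these 3 genes passed. The estimate for GNAT2 was -0.053 without myopia libraries 3 and 5, and that of OPN1SW was 0.62 without myopia libraries 1, 2 and 4.

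The remaining 3 cone genes found were too low to test. PDE6C, the catalytic subunit of the cone phosphodiesterase, had 2, 2, 2, 4 and 15 reads in control and 7, 4, 27, 2 and 17 in myopia. CNGB3, the beta subunit of the cone channel, had 1, 5, 3, 4 and 5 reads in control and 1, 0, 19, 2 and 29 in myopia, and CNGA3, its alpha subunit, had 4, 7, 9, 1 and 4 reads in control and 2, 0, 6, 9 and 10 in myopia. For PDE6C and CNGB3 myopia libraries 3 and 5 were the highest of the myopia libraries. For CNGA3 no library exceeded 10 reads. With no filter none of the 3 passed: the log2 fold change was 0.80 for PDE6C (adjusted p = 0.382), 1.08 for CNGB3 (adjusted p = 0.334) and -0.32 for CNGA3 (adjusted p = 0.735).

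Among the 18 genes that rods and cones share, 15 were tested, 7 were lower, 1 was higher and 7 did not pass. The calcium sensors and the guanylate cyclase activators belonged to the lower ones. RCVRN, recoverin, which holds back the receptor kinase while calcium is high, stood at 11.3, 13.9, 10.3, 7.25 and 16.2 CPM in control libraries 1 to 5 and 0.857, 2.48, 5.62, 1.40 and 5.11 CPM in myopia libraries 1 to 5, without overlap. Its log2 fold change of -1.93 ± 0.45 (adjusted p = 0.00192) was the lowest of the 30 genes. GUCA1A, an activator of retinal guanylate cyclase, stood at 7.53, 8.92, 6.08, 5.51 and 8.64 CPM in control libraries 1 to 5 and 1.56, 1.24, 3.98, 1.42 and 4.92 CPM in myopia libraries 1 to 5, also without overlap, and its log2 fold change was -1.48 ± 0.37 (adjusted p = 0.00271). GUCA1B, a related activator, stood at 3.00, 3.77, 3.04, 2.99 and 3.53 CPM in control libraries 1 to 5 and 1.04, 0.535, 2.62, 0.637 and 3.05 CPM in myopia libraries 1 to 5. Only myopia library 5 reached the control range, and the log2 fold change of -1.05 ± 0.43 (adjusted p = 0.0413) was fragile. The call ended on leaving out any 1 control library or myopia library 1, 2 or 4, with values of -1.07 to -0.83 and adjusted p from 0.0556 to 0.0923. It also ended without control libraries 4 and 5 (-1.04, adjusted p = 0.0951), with upper quartile factors (-0.98, adjusted p = 0.0576) and when scaled by total count (-0.61, adjusted p = 0.237).

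The retinal guanylate cyclases themselves were too low to measure. GUCY2F had 1, 11, 5, 2 and 11 reads in control and 5, 0, 8, 6 and 16 in myopia. GUCY2D had 1 read in control library 5, 1 in myopia library 1 and 0 in the other libraries. In mouse nomenclature the retinal cyclase that humans call GUCY2D is named Gucy2e, the table is partly in mouse style, and it holds a separate Gucy2e row, looked up after the GUCY2D row was seen. The Gucy2e row had 6, 22, 4, 4 and 21 reads in control and 4, 1, 25, 6 and 48 in myopia and did not pass the filter. Which of the 2 rows counts the retinal enzyme is not given in the sources used here.

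GRK1, the kinase that phosphorylates active opsin, stood at 1.89, 3.35, 1.88, 2.62 and 5.75 CPM in control libraries 1 to 5 and 0.442, 0.817, 3.26, 0.392 and 2.45 CPM in myopia libraries 1 to 5. Myopia libraries 3 and 5 lay within the control range and the others well under it, and the log2 fold change was -1.07 ± 0.57 (adjusted p = 0.107, not past the test). It passed without myopia library 3 (-1.60, adjusted p = 0.0219). PDC, phosducin, which binds the beta and gamma subunits of transducin, stood at 0.828, 0.810, 0.649, 1.38 and 1.57 CPM in control libraries 1 to 5 and 0.831, 0.845, 3.75, 0.441 and 2.95 CPM in myopia libraries 1 to 5. Myopia libraries 3 and 5 were above all controls, and the log2 fold change was 0.74 ± 0.54 (adjusted p = 0.228).

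PRPH2, peripherin, which shapes the rims of the disc membranes, stood at 7.46, 7.93, 7.17, 6.13 and 13.7 CPM in control libraries 1 to 5 and 0.987, 1.38, 3.72, 0.71 and 4.74 CPM in myopia libraries 1 to 5. The groups did not overlap, and the log2 fold change was -1.88 ± 0.48 (adjusted p = 0.0035). ROM1, the partner of peripherin in the disc rim, stood at 1.97, 2.50, 1.64, 0.820 and 1.99 CPM in control libraries 1 to 5 and 0.364, 0.169, 1.59, 0.367 and 1.63 CPM in myopia libraries 1 to 5. Its myopia libraries 3 and 5 lay within the control range and the others below it. The log2 fold change was -1.11 ± 0.55 (adjusted p = 0.0879), and it passed without myopia library 3 (-1.49, adjusted p = 0.0386) or 5 (-1.51, adjusted p = 0.0335). ABCA4, the transporter that clears retinoid from disc membranes, stood at 5.25, 7.05, 4.78, 4.26 and 8.13 CPM in control libraries 1 to 5 and 2.60, 3.41, 6.83, 3.09 and 7.43 CPM in myopia libraries 1 to 5, with myopia libraries 3 and 5 inside the control range, and did not pass (-0.34 ± 0.31, adjusted p = 0.339). RP1, a microtubule protein of the outer segment, was below the filter with 3, 8, 3, 8 and 4 reads in control and 16, 8, 42, 17 and 43 in myopia. Its myopia libraries were all at or above 8 reads, and its controls at or under 8, and with no filter it was higher (1.84, adjusted p = 0.0106).

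The matrix around photoreceptors and the retinoid carrier gave calls in opposite directions. RBP3, a protein that carries retinoids between photoreceptors and pigment epithelium, stood at 4.54, 7.36, 4.34, 4.17 and 7.55 CPM in control libraries 1 to 5 and 0.520, 0.423, 3.36, 0.759 and 3.90 CPM in myopia libraries 1 to 5. The groups did not overlap, myopia library 5 being closest to control, and the log2 fold change was -1.64 ± 0.57 (adjusted p = 0.0206), a call that ended without control library 5 (-1.50, adjusted p = 0.0549), without control libraries 4 and 5 (-1.58, adjusted p = 0.0825) and when scaled by total count (-1.20, adjusted p = 0.0794). IMPG2, a proteoglycan of the interphotoreceptor matrix, had 13, 5, 7, 13 and 15 reads in control and 27, 21, 37, 31 and 31 in myopia. It did not overlap between the groups and rose by 1.05 ± 0.37 on the log2 scale (adjusted p = 0.0214), but not past the test without control library 2 (0.89, adjusted p = 0.05001), control library 3 (0.94, adjusted p = 0.051) or myopia library 3 (0.96, adjusted p = 0.0507). IMPG1, the other proteoglycan, had 9, 13, 7, 12 and 15 reads in control and 2, 3, 22, 9 and 40 in myopia, and its log2 fold change was 0.03 ± 0.66 (adjusted p = 0.965).

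Of the remaining shared genes, 2 were lower. AIPL1, a chaperone needed for the phosphodiesterase, stood at 4.97, 8.39, 6.96, 7.25 and 10.3 CPM in control libraries 1 to 5 and 1.20, 2.90, 5.18, 1.86 and 6.72 CPM in myopia libraries 1 to 5, with myopia libraries 3 and 5 inside the control range. It fell by 1.08 ± 0.40 on the log2 scale (adjusted p = 0.0259), but not past the test without control library 2 (-1.04, adjusted p = 0.0504), control library 5 (-0.94, adjusted p = 0.067), myopia library 2 (-1.02, adjusted p = 0.0517) or myopia library 4 (-0.92, adjusted p = 0.0566). Neither did it pass without control libraries 4 and 5 (-0.91, adjusted p = 0.127) or when scaled by total count (-0.66, adjusted p = 0.171). UNC119, a carrier of lipid-modified proteins such as transducin that many tissues express, stood at 23.8, 23.1, 20.6, 24.8 and 23.6 CPM in control libraries 1 to 5 and 14.7, 12.5, 19.0, 13.6 and 15.7 CPM in myopia libraries 1 to 5. The groups did not overlap, and the fall by 0.62 ± 0.12 (adjusted p = 0.000405) shrank to 0.17 and was not past the test with scaling by total count. CRX, the transcription factor that drives photoreceptor genes, stood at 1.14, 1.16, 1.02, 1.35 and 2.79 CPM in control libraries 1 to 5 and 1.04, 0.845, 2.23, 0.563 and 1.58 CPM in myopia libraries 1 to 5. The groups overlapped, control library 5 being the highest of all, and it did not pass (-0.26 ± 0.41, adjusted p = 0.585). TULP1, which moves proteins into the outer segment, stood at 2.49, 3.35, 3.99, 2.46 and 5.78 CPM in control libraries 1 to 5 and 0.676, 1.16, 2.49, 1.03 and 4.74 CPM in myopia libraries 1 to 5. Only myopia libraries 3 and 5 reached the control range, and the log2 fold change was -0.84 ± 0.47 (adjusted p = 0.124), past the test without myopia library 5 (-1.43, adjusted p = 0.00635).

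The members differed in how far the libraries of a group lay apart. The highest over the lowest CPM of a group had a median of 2.06-fold in control and 5.83-fold in myopia over the 30 genes, and it was wider in myopia for 26 of them, all but PDE6A, CNGB1, NR2E3 and IMPG2. In SAG it was 1.75-fold in control and 5.16-fold in myopia, and in RBP3 1.81-fold and 9.22-fold. The fall of NRL and UNC119 came with little such spread, 1.46-fold and 1.53-fold in myopia, and PDE6A was also level, at 1.75-fold. The widest were IMPG1 at 20.3-fold and OPN1SW at 20.03-fold, both with 2 or 3 reads in myopia libraries 1 and 2, where counting error is large.

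Other cell types of the eye and its blood were measured with marker lists in the same libraries. The 7 melanocyte genes summed to 438, 328, 156, 191 and 144 CPM in control libraries 1 to 5 and 48.9, 52.6, 216, 83.8 and 87.4 CPM in myopia libraries 1 to 5, and in 5 of them myopia libraries 3 and 5 lay above 1, 2 and 4. Of these 7 genes 4 were lower and 1 higher (1 and 2 with scaling by total count). The 8 pigment epithelium genes summed to 78.9, 88.7, 50.5, 52.9 and 52.2 CPM in control libraries 1 to 5 and 45.5, 59.3, 80.6, 39.2 and 55.3 CPM in myopia libraries 1 to 5, and 2 of the 8 showed that order of libraries. The 16 bipolar, horizontal and amacrine cell genes summed to 57.2 to 69.7 CPM in control and 39.9 to 77.3 CPM in myopia, 8 of them were tested, and 4 of the 8 showed it. LHX1 of that list was at 0 in all libraries. For retinal ganglion cells (7 of 8 genes found, 4 tested) and Mueller glia (7 tested) the numbers were 0 and 0, and the lists summed to 29.3 to 50.2 CPM in control and 22.4 to 40.3 CPM in myopia and to 1162 to 1646 CPM in control and 1313 to 2023 CPM in myopia. The 4 red blood cell genes, all lower, summed to 2504 to 10560 CPM in control and 100 to 456 CPM in myopia, and none of them showed that order. The ganglion cell factors POU4F1, POU4F2 and ISL2, named after their values were seen, had 7, 4 and 11 reads over all libraries. The 4 tested genes of that list, RBPMS, NEFL, NEFM and SLC17A6, had means of 20.8, 10.3, 7.06 and 0.142 CPM in control. In myopia their means were 13.3, 9.23, 9.39 and 0.337 CPM. RBPMS was lower (adjusted p = 0.000585), though not past the test when scaled by total count (adjusted p = 0.255), and the others did not pass. The part of these cells in the photoreceptor values was not tested.

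Of 29 further photoreceptor genes, 26 were found and 23 tested, of which 7 were higher, 4 lower and 12 not past the test (9, 1 and 13 with scaling by total count). Their median log2 fold change was 0.32, and 13 of 23 (56.5%) had myopia libraries 3 and 5 above 1, 2 and 4. THRB, the thyroid hormone receptor that cones use to choose their opsin and that many tissues express, rose by 1.02 ± 0.12 on the log2 scale, SLC24A2, a sodium, calcium and potassium exchanger of cones and neurons, by 2.26 ± 0.28, and PROM1, a disc protein also found in other cells, by 1.12 ± 0.20. PDE6D, a carrier of prenylated proteins that is widely expressed, fell by 0.74 ± 0.09. SLC24A2 stands on 2 rows, of which only the row with the higher mean count is given. None of these genes, which were named by smallest p, had myopia libraries 3 and 5 above 1, 2 and 4. OPN1MW, the medium-wavelength cone opsin, named after its values were seen, did: it stood at 1.74, 2.47, 0.819, 1.02 and 2.41 CPM in control libraries 1 to 5 and 0.286, 0.0845, 0.642, 0.0245 and 2.34 CPM in myopia libraries 1 to 5 (-1.32 ± 0.80, adjusted p = 0.158). These were 44, 70, 24, 31 and 75 reads in control and 11, 3, 25, 1 and 89 in myopia. Myopia libraries 2 and 4 were thus at or under 3 reads, where counting error is large.

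The cilium is the stalk through which the outer segment is supplied, and most other cells also build one. Of 29 cilium genes 28 were found and 26 tested, of which 15 were higher, 2 lower and 9 not past the test (22, 1 and 3 with scaling by total count). Over all genes tested, 36.9% were higher and 35.1% lower, and the list was not tested against them. Their median log2 fold change was 0.93, and 5 of 26 (19.2%) showed the split of the myopia libraries. CEP290, a large protein of the ciliary base, stood at 2.56, 1.97, 2.83, 2.49 and 2.63 CPM in control libraries 1 to 5 and 13.6, 15.6, 16.6, 12.1 and 16.6 CPM in myopia libraries 1 to 5 and rose by 2.57 ± 0.15 on the log2 scale (adjusted p = 7.46e-08). RPGRIP1L, of the same region, rose by 1.55 ± 0.15, and TTC8, of the Bardet-Biedl complex that carries membrane proteins at the cilium, by 1.20 ± 0.14. ARL3, a GTPase that releases cargo such as that of UNC119 and PDE6D in the cilium, fell by 1.01 ± 0.12.

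The span of each gene on the chromosome, from a guinea pig RefSeq gene table (assembly mCavPor4.1), was known for 29 of the 30 genes (96.7%). Across these genes, which are not independent replicates, the Spearman correlation of span with the log2 fold change was 0.44, and across the 13186 of all genes tested that had a span (89.8%) it was 0.50. The 5 longest, PDE6A at 145 kb, IMPG1 at 137 kb, ABCA4 at 124 kb, CNGB1 at 95.4 kb and IMPG2 at 92.0 kb, had log2 fold changes of -0.09, 0.03, -0.34, 1.49 and 1.05. The 5 shortest, ROM1 at 1.88 kb, OPN1SW at 3.08 kb, GNGT1 at 3.11 kb, GNGT2 at 3.30 kb and PDE6G at 3.88 kb, had -1.11, -0.45, -1.07, -1.27 and -1.71. Short genes thus had the lower fold changes among these genes as among the genes at large.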

How the data were processed

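The authors deposited 1 table of raw counts for scleral RNA, with a row per gene symbol and a column per library. The unit was read from the values, whole numbers that sum to 32309258 to 35430797. The labels name a SMARTER mRNA library kit, and the submitters' processing notes name the mouse builds GRCm38 and mm10. No aligner, counter or strand setting was given in the sources used here, so overlapping genes cannot be told apart, and no coordinate, sequence or transcript length is given.

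Of 18079 rows 437 carry no symbol (0.751% to 1.69% of counts) and were left out. Each row was tested as its own gene. With filterByExpr (minimum count 10, minimum total 15), 14683 were tested and 2959 were not. A gene not kept is called too low to measure. Groups were compared with edgeR 4.0.16 in R 4.3.3 (TMM, glmQLFit with robust estimation, glmQLFTest), p-values adjusted by Benjamini-Hochberg over every tested gene and called below 0.05. The standard error is the log2 fold change over the square root of F. Alternatives were other scalings (RLE, upper quartile, total count), filters, DESeq2 1.42.0, limma-voom (limma 3.58.1), a replicate block, symbol rows summed and libraries left out. The test was tried on simulated data in which a small part of the genes was changed, equally up and down. It recovered 70% of 2-fold and 96% of 4-fold changes and called 8 unchanged genes. With so few genes changed, the simulation cannot check the scaling used on these data. No 2 libraries of a group agreed within counting noise (chi-square over its degrees of freedom was 18.2 to 120). All 37 genes are accounted for; of the further photoreceptor and cilium lists, up to 4 genes past the test by smallest p are named, with exceptions marked, and 1 gene of the further photoreceptor list is not reported here. The genes, lists and alternatives were chosen with earlier results of these data known.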

Additional observations from a re-analysis of the deposited data

Results flagged for a closer look

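In each group of 5 libraries the highest and the lowest level of every gene tested were compared with their neighbours. Of 60 such groups, 4 held a library whose gap to the nearest other library was above 0.71 of the group's range (Dixon's 95% critical value for 5 samples), where chance flags about 1 in 20. All 4 were control library 5, which stood above the other control libraries. NR2E3 was at 2.12 CPM there, against 0.276 to 0.599 CPM in control libraries 1 to 4. GNAT2 was at 0.996 CPM against 0.426 to 0.529 CPM, PRPH2 at 13.7 CPM against 6.13 to 7.93 CPM, and CRX at 2.79 CPM against 1.02 to 1.35 CPM. The 4 genes are not independent, since they come from the same libraries.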

How the results depend on the processing

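Over leaving out each library in turn, the number of photoreceptor genes lower in myopia ranged from 8 (without control 5) to 15, the number higher from 2 to 4, and the genes past the test from 10133 to 10854. The share of all genes tested that was lower stayed at 32.9% to 35% in these runs. Genes lower numbered 6 with total count scaling, 7 without control libraries 4 and 5 and 21 without myopia libraries 3 and 5, against 12. The share of all genes tested that was lower was 18.7%, 34.7% and 32% in these settings, against 35.1%. Genes higher numbered 1 with a minimum count of 50, where 21 of the 30 genes were tested and CNGB1 and IMPG2 were removed by the filter, 1 without myopia 3 and 5, and 6 without myopia 1, 2 and 4, against 3. RLE and upper quartile factors, no filter, DESeq2, limma-voom and summed rows gave 11 to 17 lower and 2 to 4 higher; the cause of these shifts was not tested.

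With the replicate block, which fits the library number as a term, 16 genes were lower, 2 higher and 10103 of all genes past the test, GNB3 losing its call (0.61, adjusted p = 0.0521). Same-numbered libraries did not deviate together (correlations of -0.129 to 0.013), and 0 of 5 control libraries correlated best with their own number. These values show no pairing by number. Whether equal numbers share an origin is not in the labels, and these correlations cannot decide it.

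Signs turned only for genes not past the test. With total count scaling PDE6A became 0.35, PDE6B 0.12, ABCA4 0.10 and CRX 0.15. With the block PDE6H became -0.060 and IMPG1 -0.43, and with limma-voom -0.10 and -0.66. Without control 5 PDE6A, NR2E3 and CRX were above 0; without controls 4 and 5 NR2E3 was 0.41 and CRX 0.18; without control 3 IMPG1 was -0.09. Without myopia 3 IMPG1 was -0.13. Over all single libraries left out PDE6A ranged from -0.24 to 0.046, NR2E3 from -0.75 to 0.39, CRX from -0.57 to 0.11, PDE6H from -0.19 to 0.28 and IMPG1 from -0.73 to 0.32. Without myopia 3 and 5 GNAT2 was -0.053, PDE6H -0.39, PDC -0.57 and IMPG1 -1.65, the last past the test (adjusted p = 0.0339). Without myopia 1, 2 and 4 PDE6A was 0.21, PDE6B 0.75, CNGA1 0.14, NR2E3 0.38, OPN1SW 0.62, ABCA4 0.27 and CRX 0.35. Genes near 10 reads per library carry a counting error that hides all but large differences.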

Other observations

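The photoreceptor signal passes to bipolar cells. The genes named here were chosen after their values were seen. GRM6, the glutamate receptor of ON bipolar cells, stood at 1.03, 1.94, 0.751, 0.984 and 1.89 CPM in control libraries 1 to 5 and 0.416, 0.648, 1.39, 0.294 and 5.00 CPM in myopia libraries 1 to 5. TRPM1, the channel that GRM6 controls and that melanocytes also express, stood at 5.44, 8.03, 4.47, 6.10 and 3.66 CPM in control libraries 1 to 5 and 3.35, 3.80, 13.5, 6.32 and 10.1 CPM in myopia libraries 1 to 5. TRPM1 stands on 2 rows, of which only the row with the higher mean count is given. CACNA1F, the calcium channel of photoreceptor synapses, stood at 2.21, 2.26, 1.71, 2.10 and 3.24 CPM in control libraries 1 to 5 and 0.883, 0.986, 3.90, 1.27 and 9.93 CPM in myopia libraries 1 to 5. In all 3, myopia library 5 was above every control library, and none passed the test (0.23 ± 0.68, 0.42 ± 0.36 and 0.56 ± 0.61 on the log2 scale).

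Of the 8 genes of the pigment epithelium, which borders the photoreceptors, 3 were higher, 2 lower and 3 did not pass. MITF, a transcription factor that melanocytes also use, rose by 2.48 ± 0.34 on the log2 scale (adjusted p = 2.29e-05). RPE65, the enzyme that regenerates the chromophore, stood at 5.25, 6.84, 2.70, 4.04 and 6.17 CPM in control libraries 1 to 5 and 4.68, 9.75, 14.7, 7.54 and 7.95 CPM in myopia libraries 1 to 5 and rose by 0.84 ± 0.30 on the log2 scale (adjusted p = 0.0225). LRAT, which supplies its substrate, rose by 1.98 ± 0.41 without overlap between the groups. RGR and SLC16A8 fell, with log2 fold changes of -0.83 ± 0.27 and -1.16 ± 0.33 (adjusted p = 0.0149 and 0.00593); scaled by total count neither passed (-0.37, adjusted p = 0.195, and -0.69, adjusted p = 0.0604).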
